A study of Mus musculus with 2 samples.

Results

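Classic interferon-stimulated antiviral genes were examined in RNA-sequencing of in vitro skewed Th1 cells with and without chitinase-3-like-1 (Chi3l1). The list holds 40 gene symbols, and all 40 were found among the 24421 symbols of each deposited table. The members were picked by name as known antiviral genes, though with earlier results of these data known. Naïve CD4 T cells came from mice 6 to 8 weeks old on the C57BL/6J background, either Chi3l1+/+ (WT) or Chi3l1-/- (KO), the latter lacking the gene in the whole animal. According to the methods they were stimulated through CD3 and CD28 by coated antibodies and cultured with IL-12, IL-2 and an IL-4-blocking antibody. The culture time of the sequenced cells, the number of mice behind each library and the way the null allele was made were not found in the sources used here. There is 1 library of each genotype, so no difference below has a replicate check and no test between genotypes was possible.

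Type I interferons bind a receptor made of IFNAR1 and IFNAR2, whose kinases JAK1 and TYK2 activate a transcription factor complex that holds STAT2 and IRF9 and binds the interferon-stimulated response element (ISRE) in the promoters of antiviral genes. IFNγ, the signature cytokine of Th1 cells, acts mainly through gamma-activated sites (GAS) and induces many of the same genes. The proteins sense viral nucleic acids, degrade RNA, block viral entry or tag proteins with the ubiquitin-like ISG15.

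The values are log2 of a normalized count plus 1, so that a difference of 1 is 2-fold and the added 1 shrinks differences of weakly expressed genes. Rebuilt reads summed to 70539603 in the library labelled WT and 62879381 in the library labelled KO, and 3 reads correspond to a log2 value of 1.95 in both. The targeted gene went against the labels. Chi3l1, listed as Chil1, had 1 read in the library labelled WT and 103 in the library labelled KO. Gene-level values do not show which exons these reads come from. For this reason the libraries are named by their labels throughout, and every direction below rests on those labels. Both libraries held T cell transcripts at high levels, with Cd3e at 14.94 in the library labelled WT and 14.86 in the library labelled KO. All 6 T cell markers were lower in the library labelled KO, with a median difference of -0.05. The largest of these differences were -0.37 for Cd4 and -0.29 for Cd3g, and the smallest was -0.002 for Lck. B cell markers were low but differed, with 5 of 5 higher in the library labelled KO and a summed normalized count of 939 against 1731. Their part in the differences below was not tested. Of 7 neutrophil markers, 6 were lower in the library labelled KO (summed normalized count 81.2 against 4.79). Of 4 plasmacytoid dendritic cell markers, Siglech was at 0 in both libraries and Ccr9 and Klk1 had at most 13 reads. The summed count of that list, 13375 against 9636, came almost wholly from Pacsin1 at 13.71 and 13.23. The 7 macrophage markers summed to 297 and 289, but single genes went opposite ways, with Csf1r at 97 and 174 reads and Mrc1 at 0 and 29, against Lyz2 at 34 and 2, Cd14 at 12 and 0 and Itgam at 163 and 93, while Adgre1 was at 0 in both. The 5 dendritic cell markers summed to 73.6 and 122, with Flt3 at 18 and 68 reads and Zbtb46 at 14 and 48, against Itgax at 44 and 5, and Clec9a at 0 in both. The part of these cells in the differences below was not tested either.

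The promoter windows of the members were searched for the ISRE and GAS motifs. RefSeq windows (GRCm38.p6, from 250 bases before to 50 after the transcription start) matched 31 of the 40 members, and the members without a window were Zbp1, Rtp4, Parp9, Parp14, Mx1, Usp18, Oas2, Dhx58 and Mx2. The ISRE core was searched on both strands as GAAA, any 2 bases and GAAA, or the reverse TTTC, any 2 bases and TTTC, where overlapping matches were merged. It was found in 14 of the 31 members (45.2%) and in 3.99% of all 27025 genes with a window. The GAS letters TTCNNNGAA, which read the same on both strands, were found in 9 members (29%) and in 9.55% of all genes. A match is a run of letters and not a measured binding site. The sequences below are those of members whose values are compared later, with the core in capitals and the gene's strand read 5′ to 3′, shown to let the spacing and orientation be compared.
Isg15, 78 bases before the start, chr4:156200850-156200921, minus strand: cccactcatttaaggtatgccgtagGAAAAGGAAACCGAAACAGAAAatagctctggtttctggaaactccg
Bst2, 130 bases before the start, chr8:71537562-71537627, minus strand: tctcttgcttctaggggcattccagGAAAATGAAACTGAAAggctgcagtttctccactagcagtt
Oas1a, 20 bases before the start, chr5:120907526-120907570, minus strand: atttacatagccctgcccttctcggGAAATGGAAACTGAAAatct
Oas1g, 18 bases before the start, chr5:120887614-120887656, minus strand: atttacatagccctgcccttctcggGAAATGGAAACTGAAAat
Oas3, 75 bases before the start, chr5:120777700-120777759, minus strand: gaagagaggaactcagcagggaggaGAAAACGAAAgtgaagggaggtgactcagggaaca
Ifit1, 104 bases before the start, chr19:34640760-34640819, plus strand: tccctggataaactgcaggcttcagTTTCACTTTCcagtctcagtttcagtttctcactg
Ifit3, 156 bases before the start, chr19:34583348-34583407, plus strand: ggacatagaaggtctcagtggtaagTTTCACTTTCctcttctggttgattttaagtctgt
Ifit3, 122 bases before the start, chr19:34583382-34583441, plus strand: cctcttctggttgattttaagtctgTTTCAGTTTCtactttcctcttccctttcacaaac
Ifitm3, from base 20 after the start, chr7:141010706-141010735, minus strand: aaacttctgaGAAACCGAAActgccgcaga
Isg15 carried 3 overlapping cores in a row, whereas Bst2, Oas1a and Oas1g carried 2 overlapping cores each. Ifit1 and Ifit3 each held 2 separate cores, all on the opposite strand, and Ifitm3 held 2 cores just inside the transcribed region.

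The members spanned nearly the whole range of expression in Th1 cells. Compared per kilobase of the longest GENCODE M21 transcript, Samhd1, a phosphohydrolase that depletes deoxynucleotides, was the most abundant member. It had a normalized count of 32048 per kilobase in the library labelled WT and 33316 in the library labelled KO. Zbp1, Adar, Bst2 and Sp100 followed with 3609, 2827, 2445 and 2182 per kilobase in the library labelled WT. At the other end stood Oas1g, Ifi44, Rsad2, Mx1 and Ifit3, with 1.45, 1.90, 4.39, 7.73 and 10.5 per kilobase. Genes often used as readouts of a type I interferon response were thus among the weakest members, as the plot of levels by role shows. With all members summed, the normalized counts were 191882 in the library labelled WT and 200267 in the library labelled KO, a log2 ratio of 0.06. Samhd1 alone made up 65.6% and 65.3% of these sums. As a share of all normalized counts the members took 0.280% and 0.329%, while the total itself was lower in the library labelled KO and Rn45s, a ribosomal RNA precursor, went from 2.83% to 1.0% of it.

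**Figure D1:**
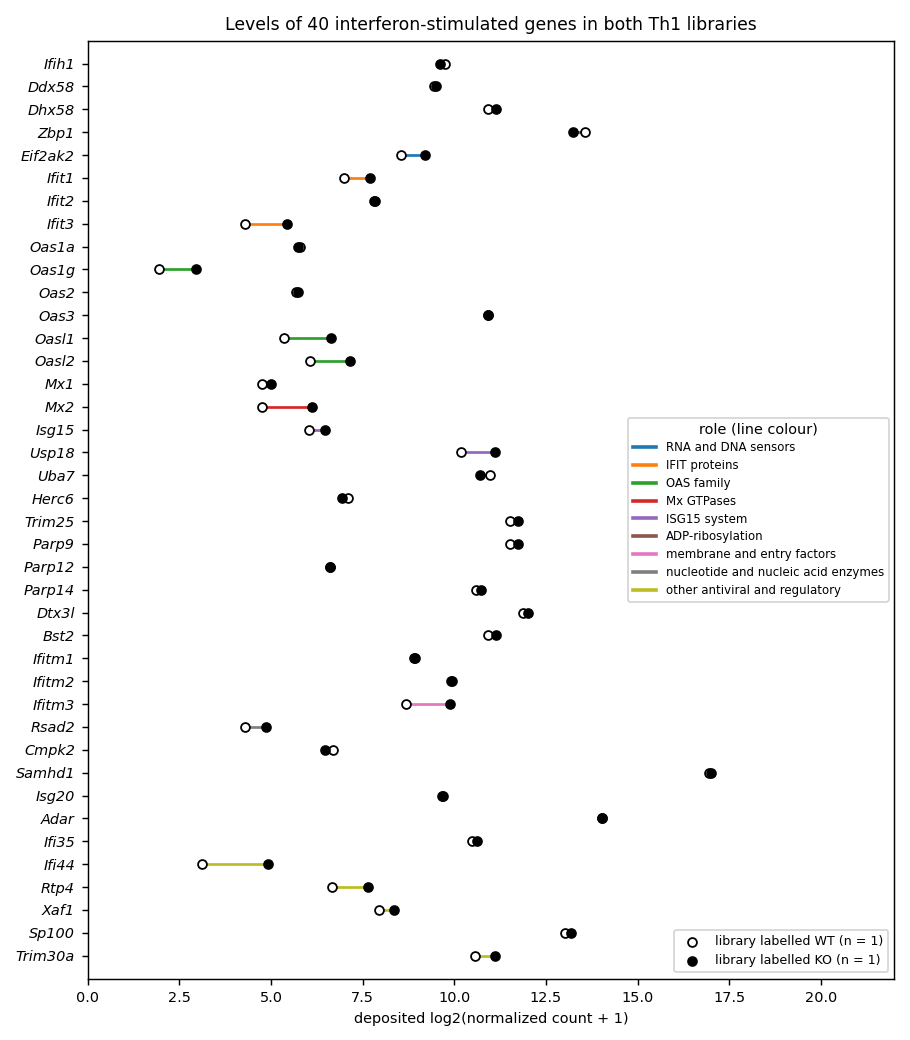
Deposited log2(normalized count + 1) of the 40 genes, by role from top to bottom, with an open circle for the library labelled WT and a filled circle for the library labelled KO (1 library each). Samhd1 stands near 17 in both libraries, while Ifi44 goes from 3.12 to 4.91 and Ifitm3 from 8.69 to 9.88.

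The members leaned toward higher values in the library labelled KO, and most of the larger differences were in weakly expressed genes. In all, 29 of 40 members (72.5%) were higher in the library labelled KO, beside 48% of the 16148 genes above 0 in either library. The median difference of the members was 0.18 on the log2 scale, beside a median of -0.007 over those genes. At least 2-fold higher were 7 members (17.5%), namely Ifi44, Mx2, Oasl1, Ifitm3, Ifit3, Oasl2 and Oas1g, beside 4.7% of all 24421 genes. Of these 7, 6 belong to the Ifit, Oas, Mx and Ifitm families, whose close copies may share reads and which hold 14 of the members. Outside these families 1 of 26 members (3.85%) was at least 2-fold higher, a share no larger than that of all genes, and 18 of 26 (69.2%) were higher. None of the 40 was at least 2-fold lower, beside 5.81% of all genes. These 24421 genes include 8273 at 0 in both libraries, whereas no member was. Of the 16148 genes above 0 in either library, 1147 were at least 2-fold higher and 1418 at least 2-fold lower. Among members reaching a log2 value of 5 in either library, 5 of 36 members were at least 2-fold higher (13.9%), beside 2.6% of 12396 genes, and 3.48% of those genes were at least 2-fold lower. At 1.5-fold, 9 of these 36 were higher (25%), beside 8.36% of the same genes, and none was lower, beside 10.5%. Oas1g, at 1.001, had only 3 and 7 reads and lies just inside the 2-fold line. Rtp4, at 0.998, lies just outside it at 103 and 207 reads, and Usp18 follows at 0.94. The groups by level differed, with a median difference of 0.58 for the 17 members with a mean log2 value under 8 and 0.15 for the 23 others. All genes at those levels had medians of -0.003 and -0.010.

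**Figure D2:**
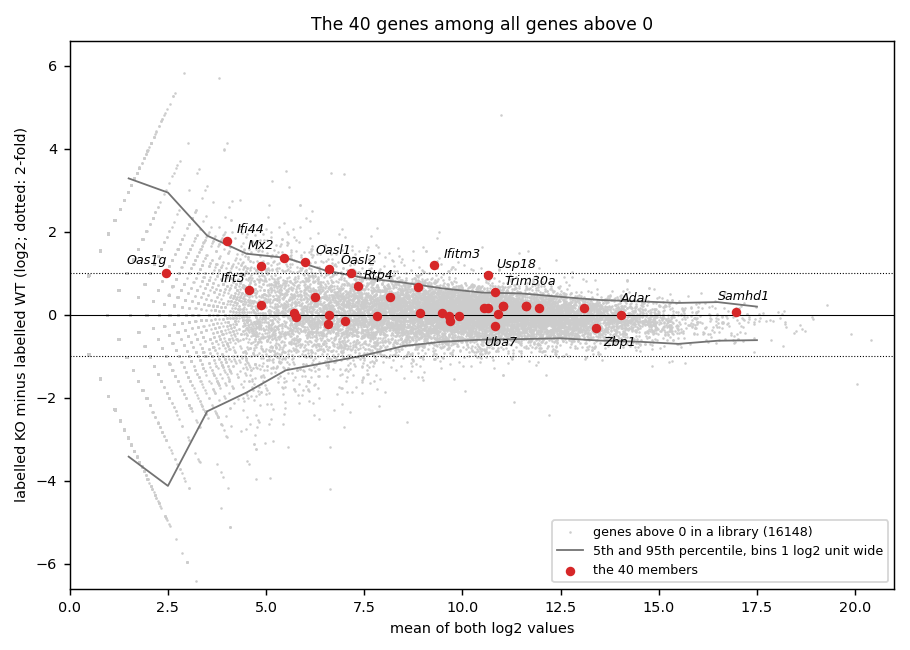
Difference between the libraries (log2 value in the library labelled KO minus that in the library labelled WT) against the mean of both log2 values, with the 40 members in red over the 16148 genes above 0 in either library in grey. Grey lines mark the 5th and 95th percentile in bins 1 log2 unit wide, and Ifitm3, Usp18 and Trim30a stand above the upper line while no member stands below the lower one.

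Each member was then set beside the 500 other genes nearest to it in mean log2 value. The medians of these neighbours centred on 0.014. Above the 95th percentile of their neighbours stood 6 members (15%), namely Ifi44, Oasl1, Oasl2, Ifitm3, Usp18 and Trim30a, beside 4.58% of all genes above 0 treated the same way. None stood below the 5th percentile of its neighbours, beside 4.66% of those genes. As a measure of counting error alone, 95% exact binomial (Clopper-Pearson) intervals of the ratio of rebuilt reads were computed. They lay above 0 for 21 members, below 0 for 3 (Ifih1, Zbp1 and Uba7) and held 0 for 16. The same count over all genes was not made, so these numbers are not a result about the members. At high read counts a small difference suffices, as for Cd3e, at -0.08 with an interval from -0.10 to -0.06. These intervals take reads as independent and hold no variation between mice or cultures. The differences of all genes also followed the GC content of their transcripts. Among genes with log2 values of 8 or more in both libraries, the median difference went from 0.229 in the lowest GC bin (38.8% GC) to -0.453 in the highest (60.9% GC). The trend was estimated on those genes only but removed at all levels. Ifi44, Mx2, Rtp4, Oasl1 and Oasl2 lie below the level where it was estimated. With that trend removed the members' median was 0.18. Oasl1, Oasl2, Ifitm3 and Usp18 were then above the 95th percentile of their neighbours as before, Ifi44 and Trim30a were not, and Mx2 and Rtp4 were. Members with differences close to 0, namely Adar, Parp12, Ifit2, Ifitm1, Ifitm2, Isg20, Oas1a and Ddx58, changed sign under at least 1 other scaling or without the GC trend.

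**Figure D3:**
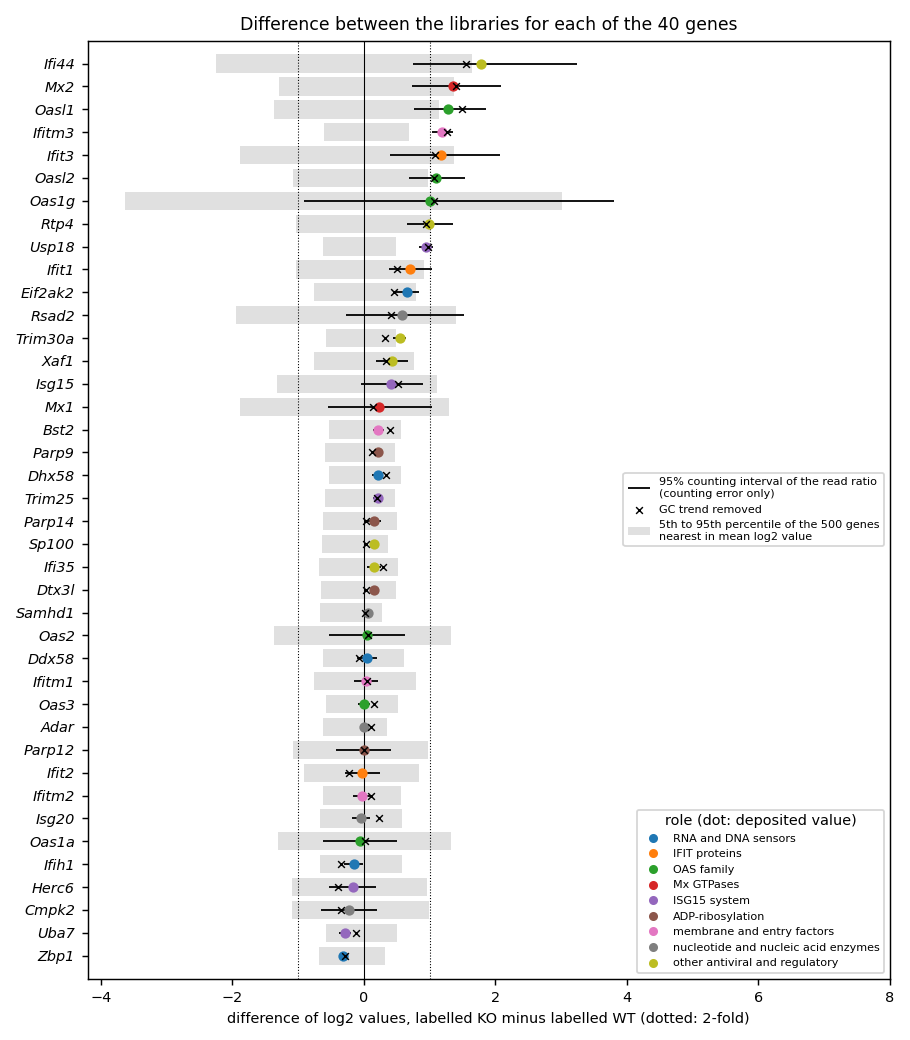
Difference of the log2 values for each member, sorted, as a dot coloured by role, with the 95% counting interval of the read ratio (line), the value after the trend with GC content is removed (cross) and the 5th to 95th percentile of the 500 nearest genes (grey bar). Ifitm3 and Usp18 lie clear of their grey bars at 1.19 and 0.94, and Oas1g has an interval from -0.91 to 3.80.

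The 3 interferon-induced transmembrane proteins, which hinder fusion of viruses with endosomal membranes, lie side by side on chromosome 7 and behaved unequally. Ifitm3 (chr7:141009586-141010770, minus strand, GRCm38) was 8.69 in the library labelled WT and 9.88 in the library labelled KO, from 425 and 975 reads. Its difference of 1.19 had a counting interval from 1.03 to 1.36 and was above the 95th percentile of its neighbours, 0.68. It had the best-supported of the 2-fold differences, since the other 6 came from at most 147 reads in either library. Ifitm1 was 8.89 and 8.93, a difference of 0.03, and Ifitm2 was 9.94 and 9.91, a difference of -0.03. The intervals of both held 0, from -0.15 to 0.22 and from -0.16 to 0.10. Bst2, or tetherin, which holds budding virions at the cell surface, was 10.92 and 11.14, a difference of 0.22 with an interval from 0.13 to 0.31. Bst2 and Ifitm3 both carry ISRE cores in the sequences above, and so does Ifitm2, whose window holds GAAAAGGAAA at 46 bases before the start.

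Among the genes of the ISG15 system, the deconjugating enzyme stood apart from the conjugating ones. Usp18 (chr6:121245906-121270917, plus strand), which removes ISG15 from proteins and also dampens signalling at the type I interferon receptor, was 10.17 in the library labelled WT and 11.11 in the library labelled KO. Its difference of 0.94 rested on 1185 and 2287 reads (interval 0.84 to 1.05), while the 95th percentile of its neighbours was 0.49. Uba7, the E1 enzyme for ISG15, was lower in the library labelled KO, at 10.97 and 10.69 (difference -0.28, interval -0.38 to -0.19). It stayed above the 5th percentile of its neighbours, -0.58, and its difference was -0.12 once the GC trend was removed. Herc6, the main mouse E3 ligase for ISG15, was 7.10 and 6.93, with an interval from -0.53 to 0.19. Trim25, a ubiquitin and ISG15 ligase that activates RIG-I, differed by 0.21. Isg15 itself was weakly expressed, at 6.04 and 6.46 from 67 and 90 reads, and its interval from -0.05 to 0.90 held 0. With so few reads the interval around its difference of 0.42 is wide. Whether the run of 3 ISRE cores shown for Isg15 goes with a difference was not tested.

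The oligoadenylate synthetase family, whose active members make the second messenger that switches on RNase L, split in the same uneven way. Oasl1 (chr5:114923240-114937915, plus strand) had 41 and 101 reads, or 5.35 in the library labelled WT and 6.63 in the library labelled KO. Its difference was 1.28 (interval 0.76 to 1.86). Oasl2 (chr5:114896936-114912234, plus strand), its neighbour on chromosome 5, had 68 and 147 reads and a difference of 1.10 (interval 0.69 to 1.55). Both exceeded the 95th percentiles of their neighbours, 1.15 and 0.97, and neither holds an ISRE core in its window. Oas3, the most abundant of the family, was 10.91 and 10.92, a difference of 0.007 from 1979 and 1992 reads. Oas1a and Oas2 differed by -0.05 and 0.05. Oas1a and Oas1g share the same letters around the core in the sequences above, and because reads with several alignments were counted, reads from such close copies can be placed on either gene.

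The IFIT proteins bind viral RNA that lacks the marks of host mRNA. Ifit3 (chr19:34583531-34588731, plus strand) was 4.28 in the library labelled WT and 5.45 in the library labelled KO, a difference of 1.17 from 19 and 44 reads (interval 0.40 to 2.07), and stayed within the range of its neighbours. Ifit1 was 7.001 and 7.702, a difference of 0.70 (interval 0.39 to 1.03). Ifit2 was 7.84 and 7.82, a difference of -0.02 (interval -0.29 to 0.25), so that a gene of the same cluster at a similar level showed no lean. Of the Mx GTPases, which trap viral capsids and ribonucleoproteins, Mx2 (chr16:97535308-97560900, plus strand) had 27 and 71 reads and a difference of 1.36 (interval 0.74 to 2.09). Mx1, of which C57BL/6 mice carry a defective allele, also had 27 reads in the library labelled WT but 32 in the library labelled KO, a difference of 0.23 with an interval from -0.54 to 1.04.

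The sensors of viral nucleic acid were well expressed and mixed in direction. Eif2ak2, the double-stranded RNA-activated kinase PKR, was 8.55 in the library labelled WT and 9.20 in the library labelled KO, a difference of 0.66 (interval 0.47 to 0.84). It stayed under the 95th percentile of its neighbours, 0.80. Zbp1, a sensor of Z-form nucleic acid that triggers necroptosis, was 13.55 and 13.23, the most negative difference of the 40 members at -0.32. Ifih1 (MDA5) differed by -0.15, Ddx58 (RIG-I) by 0.05 and Dhx58 (LGP2) by 0.21. The windows of Ifih1, Ddx58 and Eif2ak2 each hold an ISRE core after the start, and those genes had a negative, a small and a positive difference.

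Differences were mostly small among the enzymes acting on nucleotides and nucleic acids. Samhd1 was 16.94 and 17.00, a difference of 0.06. Adar, which edits adenosine in double-stranded RNA, was 14.03 in both libraries (difference -0.001, interval -0.03 to 0.03). Isg20, an exonuclease, differed by -0.04. Rsad2, the radical SAM enzyme viperin, and its genomic neighbour Cmpk2, which makes a precursor of its substrate, pointed in opposite directions at 0.58 and -0.22, and both intervals held 0. The 4 genes tied to ADP-ribosylation ranged from -0.002 for Parp12 to 0.21 for Parp9, with Parp14 at 0.16 and Dtx3l, the ligase partner of Parp9, at 0.15. None of these 9 genes reached 1.5-fold.

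All 6 remaining members were higher in the library labelled KO. Ifi44 (chr3:151730922-151749960, minus strand) was 3.12 and 4.91, the largest difference of the list at 1.78, from 8 and 30 reads (interval 0.75 to 3.24). Rtp4, a receptor-transporting protein that restricts flavivirus replication, was 6.66 and 7.65, with an interval from 0.66 to 1.36. Trim30a (chr7:104409025-104465193, minus strand), a regulator of Toll-like receptor signalling, was 10.57 and 11.11, a difference of 0.54 from 1562 and 2282 reads (interval 0.45 to 0.64). Its transcript is rich in A and T, with 40.8% GC, and its difference was 0.32 once the trend of the differences with GC content was removed, under the 95th percentile of its neighbours treated the same way, 0.48. Xaf1, an antagonist of apoptosis inhibitors, differed by 0.43, Sp100, a nuclear body protein, by 0.16 and Ifi35 by 0.15.

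The members were also split by the ISRE core, as a description with no test. The 14 members with a core in their window had a median of 0.48 and ranged from -0.15 to 1.19, with 3 at least 2-fold higher. The 17 members with a window but no core had a median of 0.06 and ranged from -0.28 to 1.78, also with 3 at least 2-fold higher. The ranges of both sets overlapped over most of their length. The 9 members without a window, among them Mx2, Rtp4 and Usp18, had a median of 0.21 and could fall on either side.

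Genes upstream of the members were mixed in direction. Neither Ifnar1 nor Ifnar2, the receptor chains, reached 1.5-fold, at 0.19 and -0.21. Of 7 receptors and kinases, 3 were higher and 4 lower in the library labelled KO, with Ifngr2 lowest at -0.85 (10.19 and 9.35). Among the transcription factors, Stat2, Irf9 and Irf7 differed by 0.24, 0.11 and 0.27 and Irf3, which induces interferon genes, by -0.41. Among 6 inhibitors of the pathway, Socs1, which blocks JAK kinases, was lowest at -0.87 (14.95 and 14.08) and Ptpn2, a phosphatase of JAK1, highest at 0.65. Ifng was 11.72 in the library labelled WT and 13.04 in the library labelled KO, a difference of 1.32.

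A further list of interferon-stimulated genes outside the 40 was described by counts, medians and sums. Of 55 symbols, 53 were in the tables and 47 reached a log2 value of 5 in either library. Of these 47, 28 (59.6%) were higher and 19 lower in the library labelled KO, beside 49.1% higher among all genes at that floor, with a median of 0.07. At least 2-fold higher were 4 (8.51%), beside 2.6% of those genes, and none was at least 2-fold lower, beside 3.48%. Those 4 were Mnda, Ifi205, Ifi204 and Tdrd7. The first 3 belong to the HIN-200 family of DNA-binding proteins, with differences of 1.99, 1.87 and 1.62, and Mnda rested on 349 and 1393 reads. Other genes of the family, Ifi203 and Mndal, differed by -0.16 and 0.33, so the family did not differ as a whole, and its copies can share reads. Tdrd7 differed by 1.01. The largest differences the other way were those of the abundant genes Mov10 and Shisa5, at -0.62 and -0.59. Normalized counts of all 53 genes summed to 763107 in the library labelled WT and 640102 in the library labelled KO. The log2 ratio of these sums was -0.25, beside -0.17 for all genes. With the GC trend removed, the median at the floor of 5 was 0.04 over the 46 genes with a GC value. Genes induced mainly by IFNγ, with Ifng itself on the list, had a median of 0.15 over 19 genes at that floor, of which only Ifng reached 2-fold. Their median was -0.03 once the GC trend was removed. The abundant GTPases Gbp2, Igtp and Ifi47 differed by 0.04, -0.12 and -0.03, while the chemokine Cxcl9 was at 0.92 and Ciita, the master regulator of MHC class II, at -0.89.

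**Figure D4:**
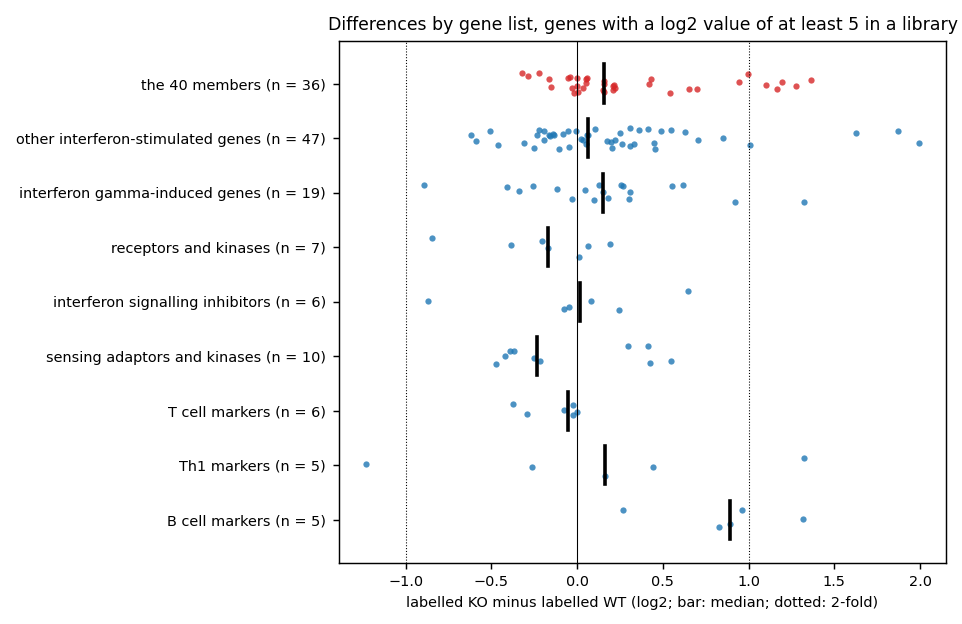
Difference between the libraries (labelled KO minus labelled WT, log2) by gene list, with 1 dot per gene that reached a log2 value of 5 in either library and a bar at the median. Medians stand at 0.16 for 36 of the 40 members and at 0.07 for 47 other interferon-stimulated genes, with T cell markers at -0.05 and B cell markers at 0.89, and Ifng appears in both the interferon gamma and the Th1 list.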

How the data were processed

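Polyadenylated RNA of 1 Th1 sample labelled WT and 1 labelled Chi3l1 KO was made into libraries with the SENSE mRNA-Seq kit and sequenced in pairs. The authors mapped reads with TopHat (mm10 per the labels), counted unique and multiple alignments for edgeR and applied a global normalization. The annotation used is not given in the sources used here. The deposited tables hold 1 log2 value per gene symbol, taken here as log2(normalized count + 1). The values themselves gave this scale: with the log undone, 2806 low values of the library labelled WT and 2783 of that labelled KO fell within 0.1 of whole multiples of 0.970 and 0.969 (100% in both), which gave the rebuilt reads.

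The difference was labelled KO minus labelled WT of the deposited values, with no test, since there is 1 library per genotype. Members and lists were chosen with earlier results of these data known. All 40 members are named, and of other lists the genes past 2-fold that reached a log2 value of 5 in either library, or otherwise the 2 with the largest differences; further genes of a pathway or family were named after their values were seen, and the list of transcription factors is not reported here as a whole. Transcript length and GC content came from GENCODE M21 (GRCm38) (longest transcript) for 40 members. The scripts were tested on simulated data. Scripts ran in Python 3.11.15 (pandas 2.3.3, scipy 1.17.1, numpy 2.4.6) and figures were drawn with matplotlib 3.10.9.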

Additional observations from a re-analysis of the deposited data

How the results depend on the processing

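The number of members at least 2-fold higher in the library labelled KO, 7 as deposited, was 8 with a pseudocount of 0.1 or median-ratio scaling, 9 with equal sums or relative to Actb, and 7 after quantile normalization or removal of the GC trend. The same 7 genes were among them under each of these settings. It was 5 among members with a log2 value of at least 5, 11 at 1.5-fold, and 1 of 26 (Ifi44, 3.85%, beside 4.7% of all genes) outside the Ifit, Oas, Mx and Ifitm families, where close copies may share reads. No member was at least 2-fold lower under any setting run, or 1.5-fold lower as deposited. The median difference of 0.18 became 0.32 with equal sums of all genes but Rn45s and 0.30 relative to Actb, settings that moved the median of all genes above 0 in both libraries from -0.003 to 0.12 and 0.10. It lay between 0.14 and 0.22 under the others. Outside the families, 18 members were higher in the library labelled KO and 3 stood above the 95th percentile of their neighbours, fewer because 26 members remained. The same 6 members were above that percentile under each scaling, 5 of them with the floor of 5. Without the GC trend the count was again 6 but with 4 of the same genes, as Ifi44 and Trim30a left and Mx2 and Rtp4 entered. These counts, and the GC removal combined with the floor, were added after seeing the data. The direction flipped for 2 members under median-ratio scaling, 3 under quantile normalization and 6 each with equal sums, relative to Actb and without the GC trend. No paired analysis was possible because each genotype has 1 library, and no library could be left out. Depth limits the weak members, with 3 and 7 reads for Oas1g and 8 and 30 for Ifi44.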

Other observations

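Transcripts of the interferons themselves were nearly absent. Of 20 type I and type III interferon genes, 15 were at 0 in both libraries, among them Ifnb1 and all but 1 of the Ifna genes, and for each of these a count of 0 allows up to 3 reads. Ifna4 had 3 reads in the library labelled WT and 0 in the library labelled KO. Ifnz was 5.66 and 5.57, from 51 and 48 reads. Weak signal in the library labelled KO alone came from Ifnk, with 0 and 17 reads, and Ifnl2, with 0 and 12 reads. Set against 3 reads in the library labelled WT, these were 5.65-fold and 4.005-fold higher. Those folds take the reads in the library labelled KO as exact. The lower limits of the counting intervals were 2.04 and 1.47 on the log2 scale. Ifnl3 had 1 and 11 reads, and as a close copy of Ifnl2 it may share them.

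Sensing adaptors and kinases of the pathway were mixed in direction. Of 10 such genes that reached a log2 value of 5 in either library, 4 were higher and 6 lower in the library labelled KO, beside 50.9% lower among all genes at that floor, with a median of -0.23. Mavs, the mitochondrial adaptor of RIG-I, was lowest at -0.47 and Tbk1, the kinase that activates IRF3, highest at 0.55.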
